A study of Mus musculus with 6 samples.

Results

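A set of 8 genes for granule proteins and their companions was followed in mouse leukemia stem cells from liver and bone marrow. The 8 were picked by symbol from the 53735 genes of the deposited table as genes of primary and eosinophil granules, with earlier results of these libraries known, and all 8 were found. Mpo and Epx encode the heme peroxidases of neutrophils and eosinophils. Elane, Prtn3 and Ctsg encode the granule serine proteases neutrophil elastase, proteinase 3 and cathepsin G. Prg2 encodes eosinophil major basic protein, Ms4a3 a membrane protein of granulocyte and monocyte progenitors, and Hp haptoglobin, which binds free hemoglobin.

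Primary granules form at the promyelocyte stage, when granulocyte precursors briefly make large amounts of peroxidase and serine protease transcripts. As the cells mature these transcripts fade and those of secondary granules follow. Myeloperoxidase turns hydrogen peroxide from the NADPH oxidase and chloride into hypochlorous acid, while eosinophil peroxidase prefers bromide and thiocyanate. The proteases are stored in active form after cathepsin C has trimmed them. Haptoglobin is made mainly by hepatocytes and also by maturing granulocytes.

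The libraries were 3 from liver and 3 from bone marrow, made from cells that the labels call leukemia stem cells of C57 male mice, taken on day 13 after leukemia cells were transplanted, with no treatment in either tissue. The sources used here do not give the leukemia's driver, the sorting gate or the number of animals. Since the replicates are labelled as technical, a p-value reflects no more than the spread among these 6 libraries. It also takes the 3 libraries of a tissue as independent, which was not tested. Depth was 9.73 to 13.8 M reads in liver and 15.4 to 18.5 M reads in bone marrow. Although every library is labelled male, replicate 1 of both tissues held the female-specific transcript Xist (6229 normalized counts in liver, 4860 in bone marrow), while 4 Y-linked genes summed to 0 in liver and 145 in bone marrow. Replicate 2 held Y-linked transcripts and 1.42 (liver) and 4.28 (bone marrow) normalized counts of Xist, and replicate 3 held both. Genes of progenitors, and of leukocytes more widely (Cd48 and Ptprc), were present in all libraries. The 9 listed were Kit, Cd34, Flt3, Ly6a, Cd48, Myb, Meis1, Hoxa9 and Ptprc. Together they summed to 19080 to 20530 normalized counts in liver and 20690 to 21140 in bone marrow.

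The promoters of the 2 peroxidase genes and of the neighbouring protease genes Elane and Prtn3 are shown because the peroxidases gave the calls below and the protease genes are the closest pair on a chromosome. Each runs from 250 bases before to 50 after the RefSeq transcript start, 5′ to 3′ on the gene's strand, and capitals mark motif matches on either strand.
Mpo promoter, chr11:87793534-87793833 (GRCm38.p6, plus strand): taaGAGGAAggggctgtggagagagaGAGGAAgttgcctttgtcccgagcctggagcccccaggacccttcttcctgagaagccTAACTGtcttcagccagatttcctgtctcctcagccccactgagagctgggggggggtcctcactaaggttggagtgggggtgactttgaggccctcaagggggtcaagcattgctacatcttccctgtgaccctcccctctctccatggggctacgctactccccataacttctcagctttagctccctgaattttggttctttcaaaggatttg
Epx promoter, chr11:87875487-87875786 (GRCm38.p6, minus strand): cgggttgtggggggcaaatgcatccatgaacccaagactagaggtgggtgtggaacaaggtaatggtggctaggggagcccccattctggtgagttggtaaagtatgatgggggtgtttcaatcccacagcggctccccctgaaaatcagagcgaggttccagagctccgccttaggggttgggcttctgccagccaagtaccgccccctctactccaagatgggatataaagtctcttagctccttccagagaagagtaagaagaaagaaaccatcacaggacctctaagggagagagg
Elane promoter, chr10:79886062-79886361 (GRCm38.p6, plus strand): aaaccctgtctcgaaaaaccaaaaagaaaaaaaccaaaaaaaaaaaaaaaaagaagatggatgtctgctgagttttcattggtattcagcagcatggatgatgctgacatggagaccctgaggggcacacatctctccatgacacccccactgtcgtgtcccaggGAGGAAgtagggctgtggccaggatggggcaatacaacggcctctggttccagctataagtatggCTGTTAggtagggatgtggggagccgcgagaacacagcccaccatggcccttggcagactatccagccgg
Prtn3 promoter, chr10:79879417-79879716 (GRCm38.p6, plus strand): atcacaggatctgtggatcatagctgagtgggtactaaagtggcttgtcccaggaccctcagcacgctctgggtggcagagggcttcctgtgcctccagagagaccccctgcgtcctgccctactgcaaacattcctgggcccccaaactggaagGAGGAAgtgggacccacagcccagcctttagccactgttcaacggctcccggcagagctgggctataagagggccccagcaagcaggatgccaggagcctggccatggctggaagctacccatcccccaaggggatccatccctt
The letters searched were GAGGAA (core of PU.1 sites), TAACNG (MYB), TTGCNNAA (C/EBP), TGTGGT (RUNX) and, for GATA factors, GATAAG. RefSeq promoters were matched for 6 of the 8 genes, Mpo, Epx, Elane, Prtn3, Ctsg and Ms4a3. GAGGAA was found in 5 of these 6, against 28.1% of 32544 promoters of the same length, and each time on the gene's own strand. Counted from the start, its first base lay at -247 and -224 in Mpo, -85 in Elane, -95 in Prtn3, -216 in Ctsg and 35 in Ms4a3. TAACNG matched in Mpo and Elane (23.4% of all promoters), TGTGGT in Ctsg (16.7%) and TTGCNNAA in Ms4a3 (10.8%), where it follows the GAGGAA match without overlap. GATAAG matched in 0 of 6 (7.32%). The Epx window held none of the 5 motifs. A match describes these letters only.

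Both granule peroxidase genes rose in liver. Mpo had 283, 2250 and 1328 normalized counts in liver replicates 1, 2 and 3, against 58.4, 59.1 and 58.7 in bone marrow. Every liver library thus lay above every bone marrow library, and the lowest, replicate 1, was 4.78 times the highest bone marrow value. The log2 fold change was 3.99 ± 0.67 (SE) on the log2(normalized count + 1) scale, with a limma adjusted p of 0.047. The bone marrow SD of 0.362 rests on 65, 69 and 79 reads, where counting error alone is larger. Mpo lies on chromosome 11 from 87793581 to 87804413 on the plus strand (GENCODE M21, GRCm38). It shares 512 exon bases with the antisense gene Gm11505, and since the library chemistry does not mark strand, reads of the pair cannot be told apart. In bulk libraries such as these, fewer cells of a type and less RNA per cell cannot be told apart either.

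Epx was read in liver alone. It had 16.8, 102 and 55.4 normalized counts in liver replicates 1, 2 and 3, from 17, 72 and 46 reads, and 0 reads in each bone marrow library. Set against a floor of 3 reads for the whole bone marrow group (at most 0.898 normalized counts), it was at least 64.8-fold higher in liver (limma adjusted p = 0.027). Liver replicate 2 carried much of this bound, which was 40.2-fold without that library, and 43.2-fold without bone marrow replicate 2 or 3. The fitted log2 fold change of 5.55 depends on the pseudocount and is no bound. Epx passed the filter of a mean of 10 normalized counts through its liver values, so that it could be tested only because it was high there. The gene lies on chromosome 11 from 87864000 to 87875536, on the opposite strand to Mpo. The longest identical stretch of the Mpo and Epx transcripts was 26 bases, in transcripts of 2750 and 2689 bases.

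With all 6 libraries 145 of 14298 genes tested differed, 1.01% (60 of them higher in liver, 0.42%). Of the 8 granule genes, 2 were called, both higher, and 6 were not. Both calls depended on the libraries in the fit: they were kept without liver replicate 1 (adjusted p = 2.1e-04 for Mpo and 0.0088 for Epx). They were lost without liver replicate 2 (0.064 for each) or 3 (0.238 and 0.197) and without bone marrow replicate 1, 2 or 3 (0.153 to 0.245 for Mpo and 0.11 to 0.177 for Epx). Leaving out both replicate 3 libraries also lost them (limma adjusted p = 0.873 for each). Calls over all genes moved as well, to 427, 86 and 8 without liver replicate 1, 2 or 3. Without bone marrow replicate 1, 2 or 3 they were 11, 17 and 6. With a bone marrow library left out the log2 fold changes were 3.98 to 3.99 for Mpo and 5.55 for Epx. With a liver library left out they were 3.36 to 4.86 and 4.99 to 6.25. The Epx call was also lost with a pseudocount of 10 (adjusted p = 0.064) and with edgeR on the recovered reads (0.065).

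**Figure D1:**
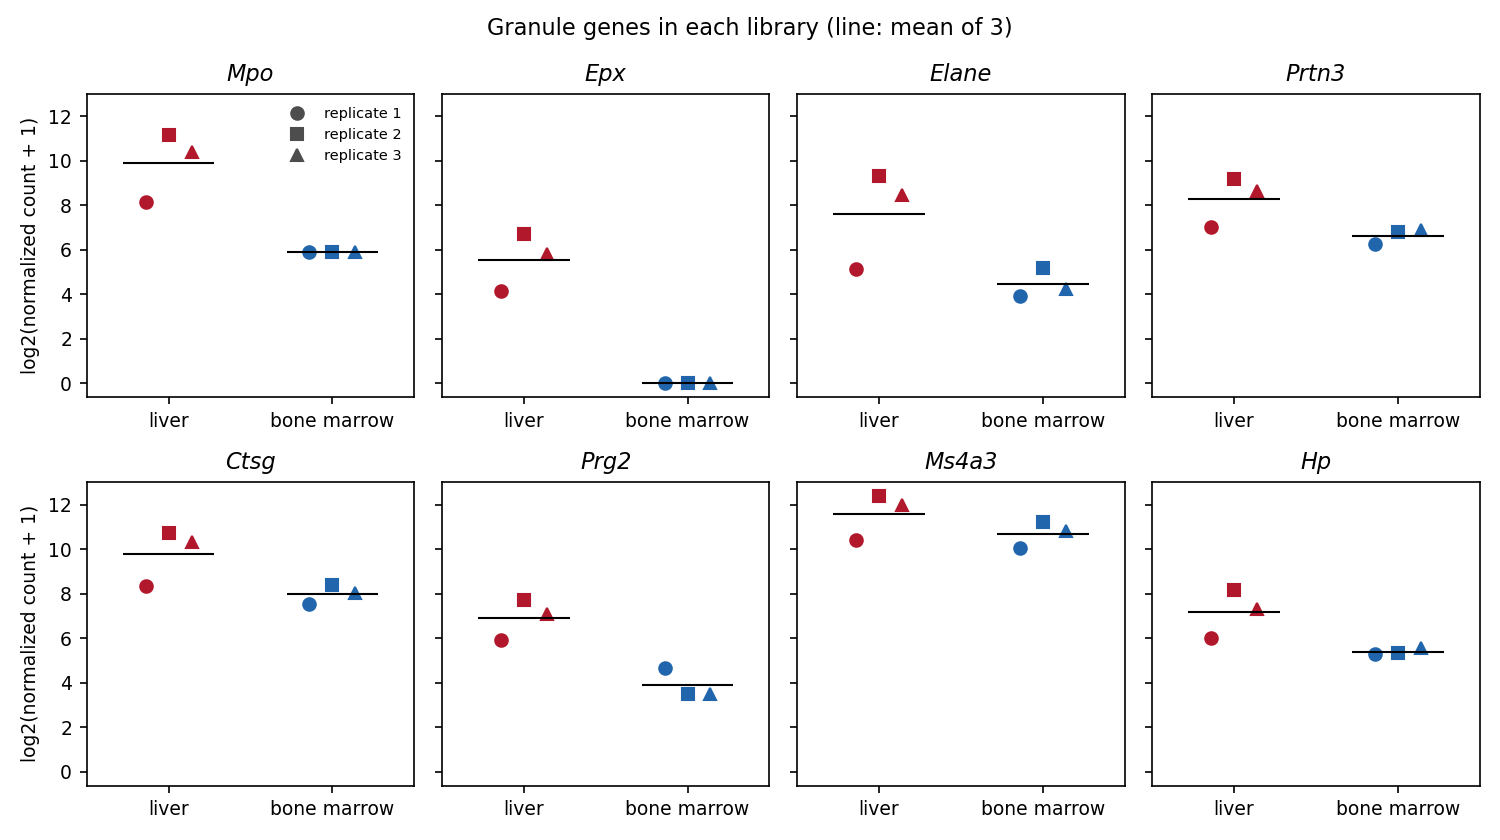
Log2(normalized count + 1) of the 8 granule genes in each library (red, liver, left; blue, bone marrow, right; circle, square and triangle for replicates 1, 2 and 3; line, mean of 3). Within liver replicate 1 was lowest and replicate 2 highest for all 8 genes, and Epx stood at 0 in the 3 bone marrow libraries.

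None of the 3 serine protease genes passed the test, which did not pair the libraries, although all had higher means in liver. With the replicate numbers as a block all 3 passed, but none did so with both replicate 3 libraries left out. Elane had 33.6, 631 and 350 normalized counts in liver replicates 1, 2 and 3, against 14.4, 35.1 and 17.8 in bone marrow. Liver replicate 1 lay just below bone marrow replicate 2, so the tissues overlapped, while the other two liver libraries were far above. Its log2 fold change was 3.17 ± 0.99 (SE, limma adjusted p = 0.20).

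Prtn3 had 129, 577 and 399 normalized counts in liver against 74.5, 109 and 117 in bone marrow. There was no overlap, but liver replicate 1 exceeded the highest bone marrow library by a factor of only 1.11. The log2 fold change was 1.65 ± 0.51 (limma adjusted p = 0.19). Prtn3 shares 159 exon bases with the opposite-strand gene Plppr3, which was itself at 1207 to 1296 normalized counts in liver and 1035 to 1128 in bone marrow, so part of the Prtn3 reads is uncertain.

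Ctsg, the most abundant of the proteases per length of exon, had 325, 1663 and 1278 normalized counts in liver against 183, 339 and 262 in bone marrow. Here too liver replicate 1 fell within the bone marrow range. The log2 fold change was 1.80 ± 0.57 (limma adjusted p = 0.20). Without liver replicate 1 the 3 genes passed, with log2 fold changes of 4.43 for Elane, 2.28 for Prtn3 and 2.52 for Ctsg (limma adjusted p = 0.0048, 0.0085 and 0.0056). Elane (10, 79886247 to 79888215) and Prtn3 (10, 79874476 to 79883174) are neighbours on the plus strand of chromosome 10, 3072 bases apart, and Ctsg lies on the minus strand of chromosome 14 (56099881 to 56102574).

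Prg2, the second eosinophil granule gene, had 60.3, 212 and 136 normalized counts in liver, against 24.2, 10.3 and 10.4 in bone marrow. The tissues did not overlap, and bone marrow replicate 1 was above the other two marrow libraries, the opposite order to liver. Its log2 fold change of 3.03 ± 0.53 missed the threshold (limma adjusted p = 0.053), and without liver replicate 1 it passed (3.53, adjusted p = 0.014). The bone marrow values rest on 27, 12 and 14 reads. Prg2 lies on chromosome 2 from 84980461 to 84983632.

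Per length of exon Ms4a3 was the most abundant of the 8 in both tissues, and it had the smallest fold change. It had 1372, 5373 and 4000 normalized counts in liver, against 1061, 2394 and 1797 in bone marrow, so liver replicate 1 lay inside the bone marrow range. The log2 fold change was 0.90 ± 0.51 (limma adjusted p = 0.46), and 1.48 without liver replicate 1 (adjusted p = 0.0496). It lies on chromosome 19 from 11629496 to 11640851.

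Hp had 63.2, 283 and 160 normalized counts in liver, against 37.7, 39.4 and 46.1 in bone marrow. The tissues did not overlap, but the log2 fold change of 1.77 ± 0.49 did not pass (limma adjusted p = 0.15). Without liver replicate 1 it was 2.35 (adjusted p = 0.013). Of hepatocyte transcripts, Alb, Ttr, Serpina1a, Serpina1c, Fga, Fgb and Fgg, which are 7 of 14 markers listed, had 0 reads in all 6 libraries. The rest had reads in at least 1 library, with Apoa1 highest at 2285 to 3003 normalized counts in liver and 2645 to 5659 in bone marrow. Hp lies on chromosome 8 from 109575128 to 109579172.

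All 8 genes had a positive log2 fold change, against 48.4% of genes tested, with a median of 2.42 beside -0.0092 over all genes. In 5 of the 8 (Mpo, Epx, Prtn3, Prg2 and Hp) every liver library exceeded every bone marrow library, against 11.4% of genes tested, and in 0 was the reverse seen. These 8 genes were chosen with such results known, so the counts describe them and carry no test. Epx is included in them, although it passed the filter only through its liver values, so that its positive sign was fixed beforehand. At an unadjusted p under 0.05 there were 7 of the 8, all but Ms4a3, and 2244 of all genes. Together the 8 genes took 0.0167% to 0.0802% of reads in liver libraries and 0.0105% to 0.0215% in bone marrow libraries.

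**Figure D2:**
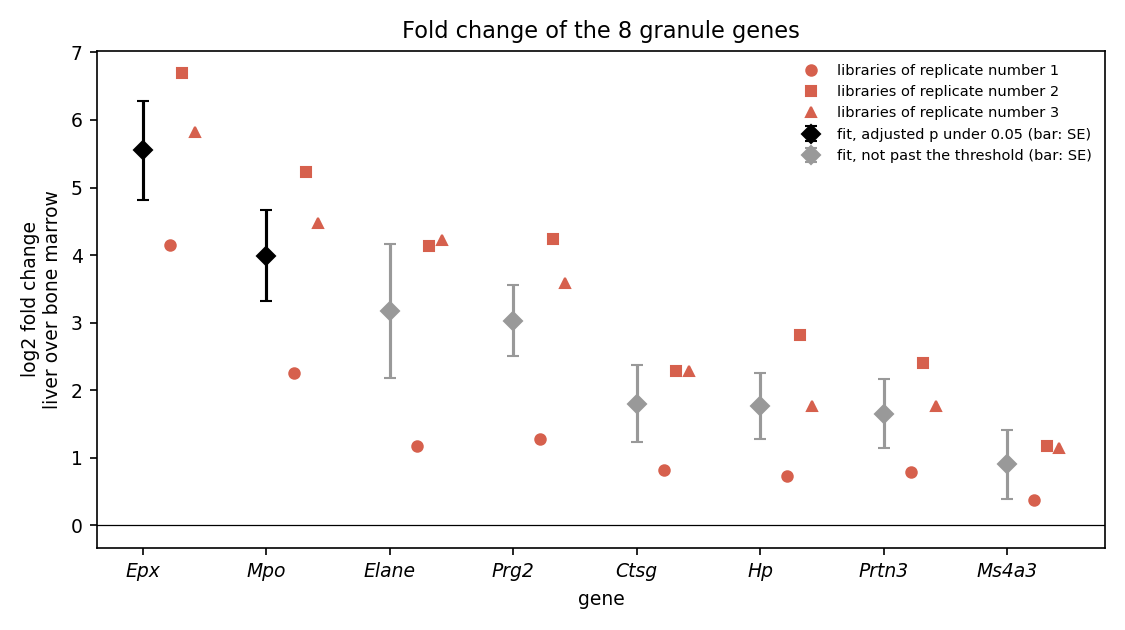
Log2 fold change of liver over bone marrow for each granule gene (diamond, fit over 6 libraries with its SE, black where the adjusted p is under 0.05; red symbols, the difference between the libraries of replicate number 1, 2 and 3). All differences were above 0, and those of replicate number 1 were the smallest for each gene, from 0.37 for Ms4a3 to 4.15 for Epx.

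Per length of exon, the order of the genes differed between the tissues. The length was that of all exons annotated for a gene, 1732 bases for Prtn3, whose longest coding transcript has 1025. Places of genes with close levels can depend on this choice. In liver the mean levels in normalized counts per kilobase were 1901 ± 1079 for Ms4a3, 1054 ± 667 for Ctsg, 376 ± 288 for Mpo, 344 ± 304 for Elane, 213 ± 130 for Prtn3, 162 ± 90.4 for Prg2, 105 ± 68.5 for Hp and 21.3 ± 15.7 for Epx (SD, n = 3). Neighbours in this order overlapped in range, except that Hp lay above Epx. In bone marrow the same levels were 929 ± 354 for Ms4a3, 253 ± 75.5 for Ctsg, 57.7 ± 13.0 for Prtn3, 25.6 ± 2.77 for Hp, 22.8 ± 11.3 for Elane, 17.9 ± 9.58 for Prg2, 17.2 ± 0.106 for Mpo and 0 for Epx. There Ms4a3, Ctsg and Prtn3 were separate from each other and from the rest, while Hp, Elane, Prg2 and Mpo each overlapped with the next in that order. Library by library, Mpo held place 3 in each liver library and place 6 in each bone marrow library. By the bone marrow means Prg2 stood above it, through bone marrow replicate 1 alone (28.9 against 12.3 and 12.4 per kilobase in replicates 2 and 3).

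All 8 genes were lowest in liver replicate 1 and highest in liver replicate 2. Liver replicate 2 exceeded liver replicate 1 by a factor of 18.8 for Elane, 7.96 for Mpo, 6.09 for Epx, 5.12 for Ctsg, 4.47 for Hp, 4.46 for Prtn3, 3.92 for Ms4a3 and 3.51 for Prg2. Of all genes tested, 3.02% were at least 4 times higher in liver replicate 2 than in liver replicate 1. In bone marrow the same ratio was 2.44 for Elane, 2.26 for Ms4a3, 1.85 for Ctsg, 1.46 for Prtn3, 1.05 for Hp, 1.01 for Mpo and 0.424 for Prg2. In bone marrow Mpo and Hp were thus near level between the replicates and Prg2 was lower in replicate 2, and the contrast with liver was not tested.

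Liver replicate 3 lay between liver replicates 1 and 2 for all 8 genes, at 0.926 times (Hp) to 1.29 times (Ctsg) the mean of the other two. Over all genes tested it lay between them for 50.8%. In sex-linked transcripts, too, liver replicate 3 lay between them, Xist with 6229, 1.42 and 2425 normalized counts in liver replicates 1, 2 and 3 and the sum of Ddx3y, Kdm5d, Uty and Eif2s3y with 0, 2675 and 1634. The part of this difference in the granule gene values was not tested.

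Across the 6 libraries Pearson's r of the log2 values, given as a description of libraries that share tissue and replicate number, was highest for Elane with Ctsg (0.996), Prtn3 with Ctsg (0.991) and Mpo with Epx (0.987). It was lowest for Ms4a3 with Prg2 (0.638) and with Epx (0.713). Among 10129 named genes averaging 50 normalized counts or more, those most like Mpo were Tcp1, Coa3 and Ccnb2 (r = 0.999, 0.998 and 0.998), with log2 fold changes of 0.14, 0.21 and 0.14. Most like Elane were Hmgn2, Ctsg and Lcn2 (0.997, 0.996 and 0.996), and most like Epx were Prss34, Cox6b1 and Gpx1 (0.999, 0.997 and 0.997). For Prg2 they were Nt5c3b, Nsmce4a and Maz (0.994, 0.994 and 0.993), and for Hp Ube2d1, Tomm22 and Vbp1 (0.997, 0.996 and 0.996). Of these 15 matches Prss34 alone passed the test.

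**Figure D3:**
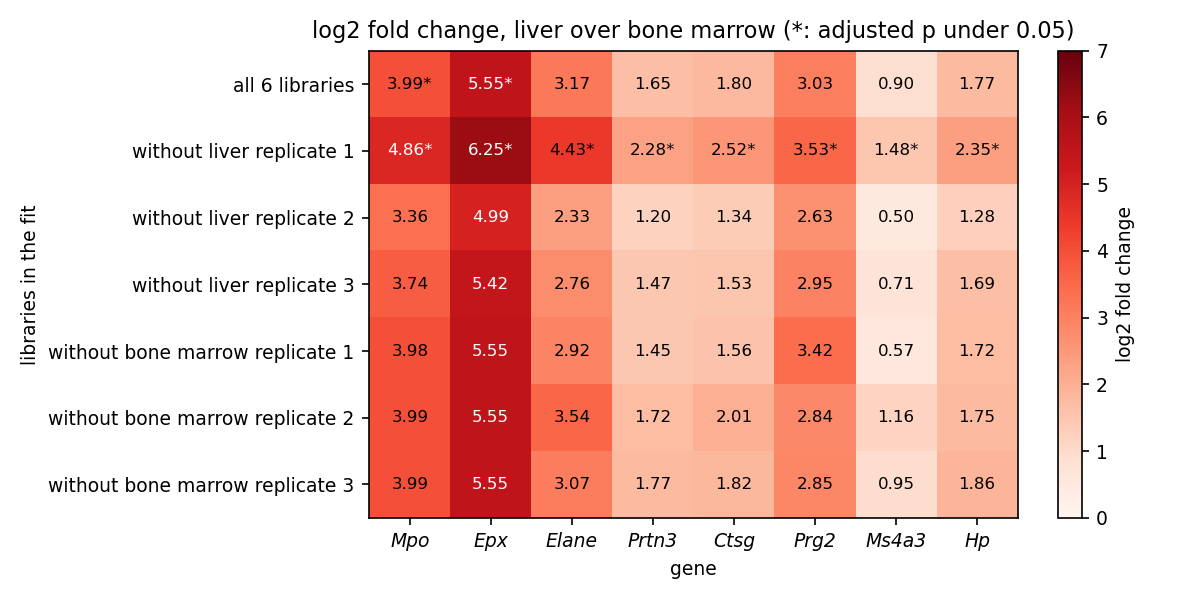
Log2 fold change of liver over bone marrow for each granule gene (columns) with all 6 libraries and with each library left out in turn (rows); an asterisk marks an adjusted p under 0.05. The asterisks fill the row without liver replicate 1 (8 of 8) and are absent from the 5 rows that leave out another library, while all values stay positive, from 0.50 for Ms4a3 to 6.25 for Epx. Of all genes, 2.98% were called without liver replicate 1 and 0.042% to 0.602% in those 5 fits. Liver replicate 1 was the lowest liver library for all 8 genes, so leaving it out raises each liver mean.

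No adjacent gene outside the 8 passed the test. Mpo, Lpo and Epx form a peroxidase cluster on chromosome 11, and Lpo, the lactoperoxidase gene 2014 bases from Mpo, had 0 reads in all 6 libraries (a count that allows up to 3). On the other side of Mpo, Tspoap1 (Bzrap1 in the table) had a log2 fold change of -0.29 (limma adjusted p = 0.60). Beside Epx, Mks1 had -0.36 (adjusted p = 0.52) and Olfr462 0 reads. Cfd, next to Elane, had 0 reads, and Ptbp1, next to Prtn3, a log2 fold change of 0.12 (adjusted p = 0.28). Mcpt8, the basophil protease gene 14607 bases from Ctsg, had 933, 2476 and 1733 normalized counts in liver against 512, 1353 and 912 in bone marrow without passing (0.89, adjusted p = 0.38). Ms4a2, which encodes the beta chain of the IgE receptor and lies 5776 bases from Ms4a3, had -0.53 (adjusted p = 0.27), and Txnl4b, beside Hp, -0.13 (adjusted p = 0.78).

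Genes that process or store the granule proteins did not pass the test. Of 15 other azurophil granule and processing genes, 13 were tested, 0 were higher, 0 lower, and their median log2 fold change was -0.14. Ctsc, the cathepsin C gene, averaged 3960 ± 1061 normalized counts in liver and 5399 ± 413 in bone marrow (SD, n = 3 each, -0.48, limma adjusted p = 0.28). Srgn, which encodes the granule proteoglycan serglycin, had -0.14 (adjusted p = 0.54) and the granule membrane gene Cd63 -0.58 (adjusted p = 0.23). Gaa, an acid glucosidase gene, had the smallest adjusted p (-0.41, 0.069).

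Heme and oxidant supply likewise gave no call. Of the 13 genes of other heme peroxidases, heme synthesis and peroxidase folding 10 were tested and 0 passed (median 0.02), and Lpo and Pxdn had 0 reads. Alas1, the first enzyme of heme synthesis, had 490, 1003 and 844 normalized counts in liver, against 529, 647 and 671 in bone marrow (0.28, limma adjusted p = 0.65). The peroxidase chaperone gene Calr had 0.03 (adjusted p = 0.94). Of the 6 NADPH oxidase genes 0 passed (median 0), with Ncf1 at 0.00 (adjusted p = 0.99). The catalytic subunit gene Cybb was low and uneven, with 45.5, 49.8 and 20.5 normalized counts in liver, against 8.08, 69.4 and 58.0 in bone marrow. Its log2 fold change of 0.14 ± 0.79 (SE, limma adjusted p = 0.95) was thus poorly measured.

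Among 9 genes of inhibitors of the serine proteases and cathepsins, 3 were tested and Slpi, the secretory leukocyte protease inhibitor that blocks elastase and cathepsin G, rose. It had 749, 1393 and 1148 normalized counts in liver, against 163, 373 and 307 in bone marrow (1.99, limma adjusted p = 0.048). Serpinb1a, an intracellular inhibitor of these proteases, had -0.13 (adjusted p = 0.64). The median of the 3 was -0.13. The Slpi call was kept without liver replicate 1 (adjusted p = 0.018) and lost without liver replicate 2 (0.084) or 3 (0.238) and without bone marrow replicate 1 (0.13), 2 (0.111) or 3 (0.227).

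Of 12 granulocyte transcription factor genes 0 passed, 6 had a positive fold change and the median was 0.03. Cebpa, which drives entry into the granulocyte lineage, had 61.3, 208 and 173 normalized counts in liver, against 26.0, 40.3 and 55.0 in bone marrow, with no overlap (1.73, limma adjusted p = 0.16). Cebpe, needed for secondary granules and eosinophils, had 1.98, 76.8 and 30.1 in liver, against 2.69, 3.43 and 5.95 in bone marrow (2.00, adjusted p = 0.46). Gfi1 had 22.7, 227 and 171 in liver, against 22.5, 100.2 and 46.8 in bone marrow (1.01, adjusted p = 0.65). In liver these 3 had the same order of replicates as the granule genes. So did Cebpb, Cebpd, Spi1, Myb, Gata2 and Xbp1 of the list, while Runx1, Irf8 and Gata1 did not. Cebpb, also with no overlap, had a log2 fold change of 0.40 (adjusted p = 0.2) and Gata2 -0.23 (adjusted p = 0.3). Spi1, the PU.1 gene, had 0.09 (adjusted p = 0.81) and Gata1 -0.21 (adjusted p = 0.83).

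Markers of mature neutrophils were at low levels. In liver their sum had the replicate order of the granule genes. The sums of most other gene lists had this order too, but not those of the eosinophil, liver endothelium and erythroid lists. The 12 genes summed to 177, 903 and 501 normalized counts in liver replicates 1, 2 and 3, against 82.6, 122 and 112 in bone marrow. Of the 6 tested, Cxcr2 rose (86.9, 89.6 and 55.4 in liver against 9.88, 7.71 and 9.67 in bone marrow, 2.93, limma adjusted p = 0.018), 0 fell and 5 did not pass (median 1.83). Without liver replicate 3 or bone marrow replicate 1, 2 or 3 the Cxcr2 call was lost (0.109, 0.0779, 0.0699 and 0.13). Its bone marrow mean was 9.08, so Cxcr2 passed the filter of a mean of 10 only through its liver values. Lcn2, a secondary granule gene, had 69.2, 401 and 249 in liver, against 33.2, 54.8 and 35.7 in bone marrow (2.22, adjusted p = 0.14). Camp, Mmp8, Mmp9, Cd177, Itgb2l and Retnlg stayed under the filter. The part of mature neutrophils in the granule gene values was not tested.

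Of the genes that define eosinophils, most were at or near 0. Ear1 and Ear10 had 0 reads in all libraries, and Il5ra, the eosinophil interleukin-5 receptor gene, had 0 reads in liver and 5 in bone marrow. Prg3, the homologue of Prg2 that lies 4582 bases from it, had 0.988, 9.95 and 16.9 normalized counts in liver, against 1.80, 5.14 and 8.18 in bone marrow, under the filter. Siglecf, an eosinophil surface lectin gene, fell, with 1193, 1080 and 1191 normalized counts in liver against 2307, 2395 and 2524 in bone marrow (-1.06, limma adjusted p = 0.0019). Alox15, a lipoxygenase gene of eosinophils, had 2.04 (adjusted p = 0.067). The summed level of the 9 genes was 1136 to 1241 in liver and 2315 to 2565 in bone marrow, nearly all of it Siglecf. The Siglecf call held with any 1 library left out (adjusted p = 0.0011 to 0.029). The part of eosinophils in the Epx and Prg2 values was not tested.

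**Figure D4:**
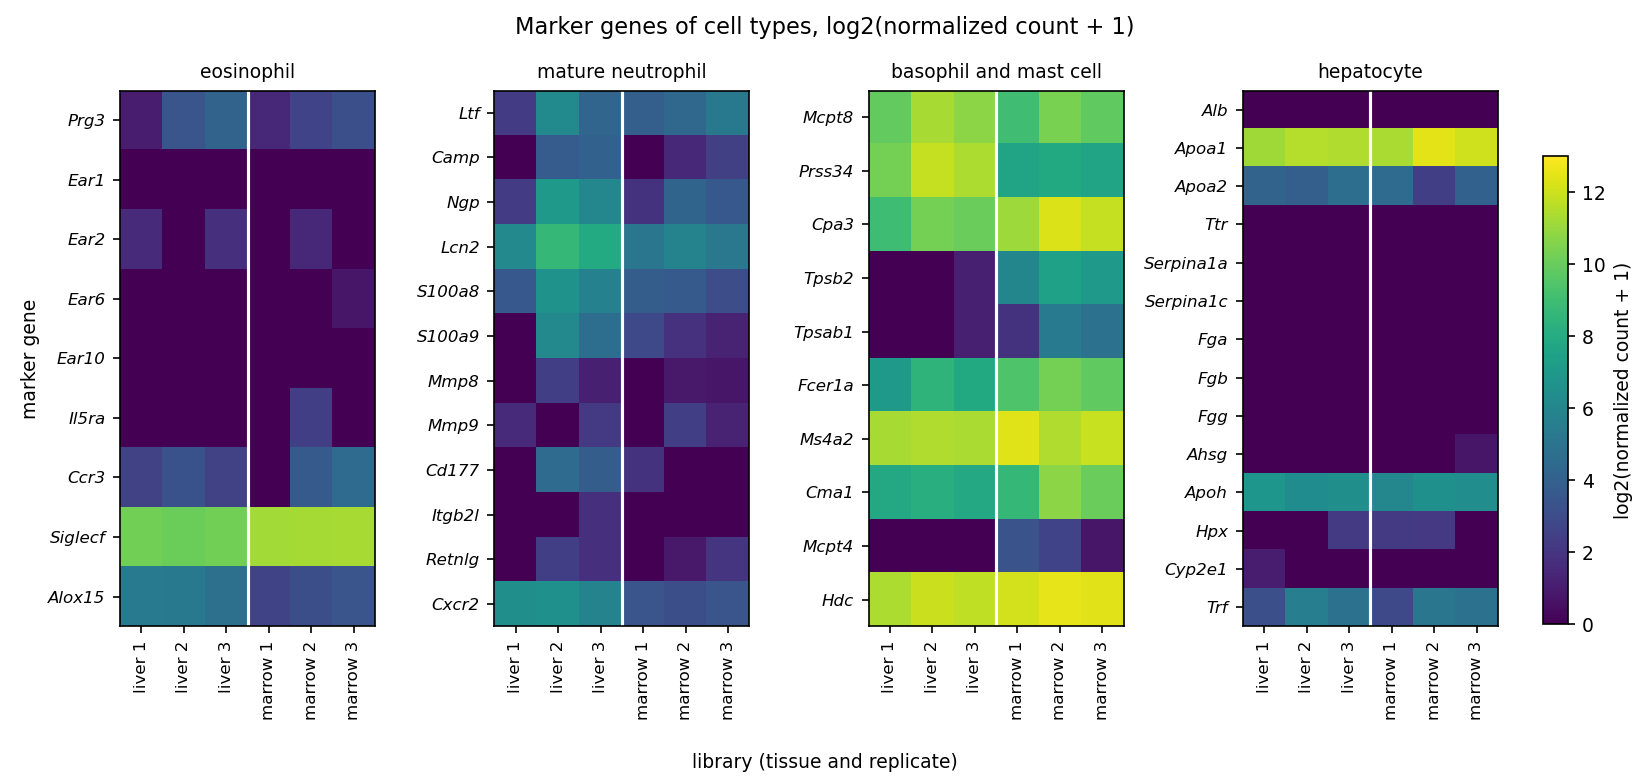
Log2(normalized count + 1) of marker genes for eosinophils, mature neutrophils, basophils and mast cells, and hepatocytes in the 6 libraries (liver left of the white line, bone marrow right of it). Most eosinophil and hepatocyte markers are at or near 0, while 7 of the 10 basophil and mast cell genes are above 100 normalized counts in all 6 libraries.

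Basophil and mast cell genes were mostly abundant in both tissues, except Tpsb2, Tpsab1 and Mcpt4, which had 1, 1 and 0 reads over the liver libraries and 439, 87 and 17 over the bone marrow libraries. The 10 genes summed to 8249 to 14940 normalized counts in liver and 13740 to 18580 in bone marrow. Of 9 tested, Prss34 rose (1243, 3701 and 2694 in liver against 193, 235.5 and 192 in bone marrow, 3.48, limma adjusted p = 0.016). The tryptase gene Tpsb2 fell (0, 0 and 1.20 in liver against 61.05, 175 and 124 in bone marrow, -6.41, adjusted p = 0.0091). It passed the filter only through its bone marrow values. The other 7 did not pass, among them Fcer1a (-2.03, adjusted p = 0.061) and Cpa3 (-2.01, adjusted p = 0.071), both lower in liver with no overlap. Of the 9, 2 had a positive log2 fold change, and the median was -1.86. Without liver replicate 3 the Prss34 call was lost (adjusted p = 0.113), as it was without bone marrow replicate 1, 2 or 3 (0.0819, 0.0611 and 0.13), and the Tpsb2 call was lost without bone marrow replicate 2 or 3 (0.0611 and 0.13). Of other liver cells, the 10 Kupffer cell and macrophage genes summed to 319 to 542 normalized counts in liver and 479 to 617 in bone marrow, and the 6 endothelial genes to 5.69 to 59.0 in liver and 69.4 to 95.2 in bone marrow, with 0 calls in either list. Clec4f, Vsig4 and Cd5l of Kupffer cells and Cdh5 of endothelium had 0 reads in all libraries, and Stab2, Clec4g, Lyve1 and Kdr had at most 3 reads in a library. Of the hepatocyte list, 4 genes were tested and 0 passed. They were Apoa2 (48 reads in liver, 51 in bone marrow), Trf (64 and 83), Apoh (244 and 289) and Apoa1, which stood at 2285 to 3003 normalized counts in liver and 2645 to 5659 in bone marrow (-0.59, adjusted p = 0.32).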

How the data were processed

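Column-purified RNA was turned into low-input libraries with SMARTer and Nextera XT, per the labels' protocols. The submitters' processing notes name R 3.4.1, DESeq2 1.16.1, STAR 2.6.0c, Trimmomatic 0.36 and bcl2fastq 2.19.0. A genome build, an annotation and a read counter were not given in the sources used here. Each deposited signal value is a normalized count per gene and library, that is, the authors' reads scaled by DESeq2 size factors, per the table's name. In each library 100% of values were whole multiples of the smallest within 0.01, so reads were recovered (1 read was worth 0.988 to 1.42 normalized counts in liver and 0.744 to 0.898 in bone marrow). A floor of 3 reads covers only counting error. Libraries of a tissue differed beyond sampling noise (chi-square per degree of freedom 6.50 to 25.9) and were kept separate.

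Tissue was tested with limma 3.58.1 (R 4.3.3) on log2(normalized count + 1), two-sided, with no other term and a trend in the variance. Adjustment by Benjamini-Hochberg covered the 14298 genes whose mean was 10 normalized counts or more. Calls are adjusted p-values under 0.05, and an unadjusted level of 0.05 is given beside it. Fold changes on this scale understate the change of low genes. DESeq2 1.42.0 and edgeR 4.0.16, run on recovered reads, were alternatives, and the code was tested on simulated data. The simulated libraries were independent, with the same dispersion for all genes, so that run checks the code and not the calls here. The 8 genes, the lists and the tests were chosen with earlier results of these data known. Named are the 8 genes, list members that passed with up to 3 others, the 3 genes most like Mpo, Elane, Epx, Prg2 and Hp, and the nearest protein-coding neighbours. Some further list members were named after their values were seen. GENCODE M21 (GRCm38) gave positions and exon lengths for 8 of 8 genes by symbol; nothing was counted with it. Promoters are RefSeq's on GRCm38.p6. Figures were drawn with matplotlib 3.10.9.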

Additional observations from a re-analysis of the deposited data

How the results depend on the processing

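All tested granule genes kept a positive fold change under each alternative run, 19 for Epx, which a mean of at least 50 normalized counts removed, and 20 for the others. Of the 8, 2 were called with all libraries, and 0 to 8 with 1 library left out (145 genes called in all, and 6 to 427). The count of 8 came without liver replicate 1, and without any other library limma called 0, with 4 to 7 of the 8 and 1456 to 2277 of all genes at an unadjusted p under 0.05. A pseudocount of 10, a mean of at least 50 and edgeR each called 1 (Mpo; 141, 130 and 132 genes in all), DESeq2 6 (634 in all). The labels do not say what the replicate numbers share. Deviations of same-numbered libraries from their tissue mean correlated at 0.44, 0.40 and 0.06, and liver replicate 3 correlated best with bone marrow replicate 2 (0.15), so the numbers were not taken as pairs. Same-numbered libraries did match in Xist and Y-linked reads, and replicate 3 held both, so its low correlation does not show that pairing is absent. With the replicate block 7 granule genes (all but Hp) and 525 genes were called, with adjusted p of 0.0303 for Elane, 0.0273 for Prtn3 and 0.0199 for Ctsg. Without both replicate 3 libraries limma called 0 and 2 (3 of the 8 and 802 genes at an unadjusted p under 0.05), and with the replicate block added 0 and 15 (8 of the 8 and 1409 genes). Chosen after seeing the data, leaving out both replicate 1 libraries gave 8 and 222, and leaving out both replicate 2 libraries gave 0 and 22 (6 of the 8 and 1774 genes at an unadjusted p under 0.05). Fewer libraries leave fewer degrees of freedom; other causes were not tested. TMM factors, quantile normalization, a pseudocount of 0.5, no filter and thinning to equal depth called 2 or 3 of the 8, Prg2 being the third, and 143, 156, 146, 122 and 128 genes in all. Adjusted p ranged from 1.8e-06 to 0.87 for Mpo and from 2.5e-07 to 0.87 for Epx. Counts of 12 to 27 reads limit Prg2 in bone marrow, and 17 to 72 reads limit Epx in liver.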

Other observations

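Genes of haptoglobin's partners did not pass the test. Of 8 genes of hemoglobin and haptoglobin clearance, 7 were tested, 0 passed, 2 had a positive log2 fold change and the median was -0.22. The beta globin gene Hbb-bt had 1696, 3019 and 2662 normalized counts in liver, against 3908, 4960 and 4656 in bone marrow, with no overlap (-0.91, limma adjusted p = 0.097). Hbb-bs had 45.5, 54.0 and 69.8 in liver, against 108, 211 and 176 in bone marrow (-1.50, adjusted p = 0.071). Reads of these similar globin genes can be shared, so each value is uncertain. Cd163, the scavenger receptor for haptoglobin-hemoglobin complexes, had 134, 83.9 and 81.9 in liver, against 119, 96.8 and 76.6 in bone marrow (0.02, adjusted p = 0.98), and Hmox1, heme oxygenase 1, had 0.20 (adjusted p = 0.69).

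Erythroid markers gave no call among 6 tested (median -0.50), with summed levels of 2327 to 3231 normalized counts in liver and 3664 to 4030 in bone marrow. Of the 8 T, B and NK cell markers Cd3e, Ms4a1 and Ncr1 had 0 reads in all libraries, and the list summed to 143 to 237 in liver and 238 to 277 in bone marrow.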
